A study of Mus musculus with 6 samples.

Results

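Polyamines are small positively charged metabolites that bind nucleic acids and that proliferating cells make in quantity. Ornithine decarboxylase (Odc1) makes putrescine from ornithine, and S-adenosylmethionine decarboxylase (Amd1) supplies the aminopropyl groups that spermidine synthase (Srm) and spermine synthase (Sms) add to putrescine and to spermidine. Antizymes (Oaz1, Oaz2) bind ornithine decarboxylase and send it to the proteasome, and the antizyme inhibitor (Azin1), an inactive relative of the decarboxylase, takes the antizymes away from it. Spermidine/spermine acetyltransferase (Sat1) marks polyamines for export and breakdown. These 8 of the 46963 gene names in the count table were chosen as members of this pathway, with earlier results of these data known. They are described here in 3 genotypes of mice and from resting to LPS-stimulated splenic B-cells. All 8 passed the filter on low counts (at least 10 counts in at least 2 libraries), as did 14600 genes in total.

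The data were 6 RNA-seq libraries of CD43- spleen B-cells. The genotypes were wt, deficient for Eμ or deficient for the 3′RR, with 1 resting and 1 LPS library each. Eμ is the intronic enhancer of the immunoglobulin heavy chain locus, deleted together with its flanking matrix attachment regions, and the 3′RR is the regulatory region at the 3′ end of that locus. All mice were of the 129 background, male and female, and 8 to 12 weeks old. According to the labels each library holds the cells of 2 mice, pooled. The methods of the study describe 2 pools of RNA for each genotype, whereas the count table holds 1 library per genotype and state. LPS cells were cultured with 5 µg per ml of the lipopolysaccharide for 2 days. For resting cells the labels give 2 days in medium alone, whereas the methods of the study describe cells taken before stimulation, and the labels give the dose in milligrams in another place. The deleted enhancers have no value of their own in the count table, so the genotype labels were not checked on them. With 1 library per genotype and state, a test of a genotype within a state is not possible. The fitted effects below come from 1 model over all 6 libraries with genotype and state as additive terms, in which the error measures how far the libraries depart from these terms and does not measure the spread between mice.

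Genes received between 9111974 and 21998587 counts per library. Levels are TMM-scaled CPM, the counts divided by library size, and levels of different genes are compared only per kb of annotated exon. This length is the union of all annotated exons of a gene. It can exceed the longest transcript, as for Sat1 (2774 against 1352 bases) and Sms (6010 against 3717 bases). The summed level of 6 B-cell markers lay between 1688 and 3036 CPM in every library, and none of the 6 was at 0. Other markers moved with the groups. The sum of 6 cell cycle genes was between 167 and 281 CPM in resting and between 1567 and 1842 CPM in LPS libraries, and all 6 rose with LPS. The sum of 6 erythroid markers was 20135 CPM in Eμ-deficient resting cells against 3355 CPM in wt resting cells, and at most 670 CPM in LPS libraries. The sum of 6 myeloid markers was 346 CPM in Eμ-deficient resting cells, 147 CPM in both other resting libraries and between 18.4 and 31.3 CPM in LPS libraries. All 6 erythroid and all 6 myeloid markers fell with LPS. In such bulk samples, fewer cells of a type and less RNA per cell cannot be told apart. Libraries also differed from each other in their spike-in RNAs, of which 35 had at least 100 counts in each library. The log2 ratio of these RNAs between a pair of libraries had an SD of 1.27 for 3′RR-deficient to wt LPS cells, against 0.157 for 3′RR-deficient to wt resting cells. From resting to LPS that SD was 0.784 in wt, 0.633 in 3′RR-deficient and 0.135 in Eμ-deficient cells, and for Eμ-deficient to wt it was 0.477 at rest and 0.44 with LPS. The wt LPS and the 3′RR-deficient LPS library thus both differed from the resting library of their genotype. Gene ratios also followed the GC content of the genes. Over 13993 genes (no independent replicates) Spearman's rho was 0.56 for 3′RR-deficient to wt with LPS, -0.26 for LPS to resting in wt and 0.14 in 3′RR-deficient cells, and -0.38 for Eμ-deficient to wt at rest. Mutant to wt ratios of all 8 genes with the GC trend removed are in the plot of these ratios, and the larger shifts are given below.

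**Figure D1:**
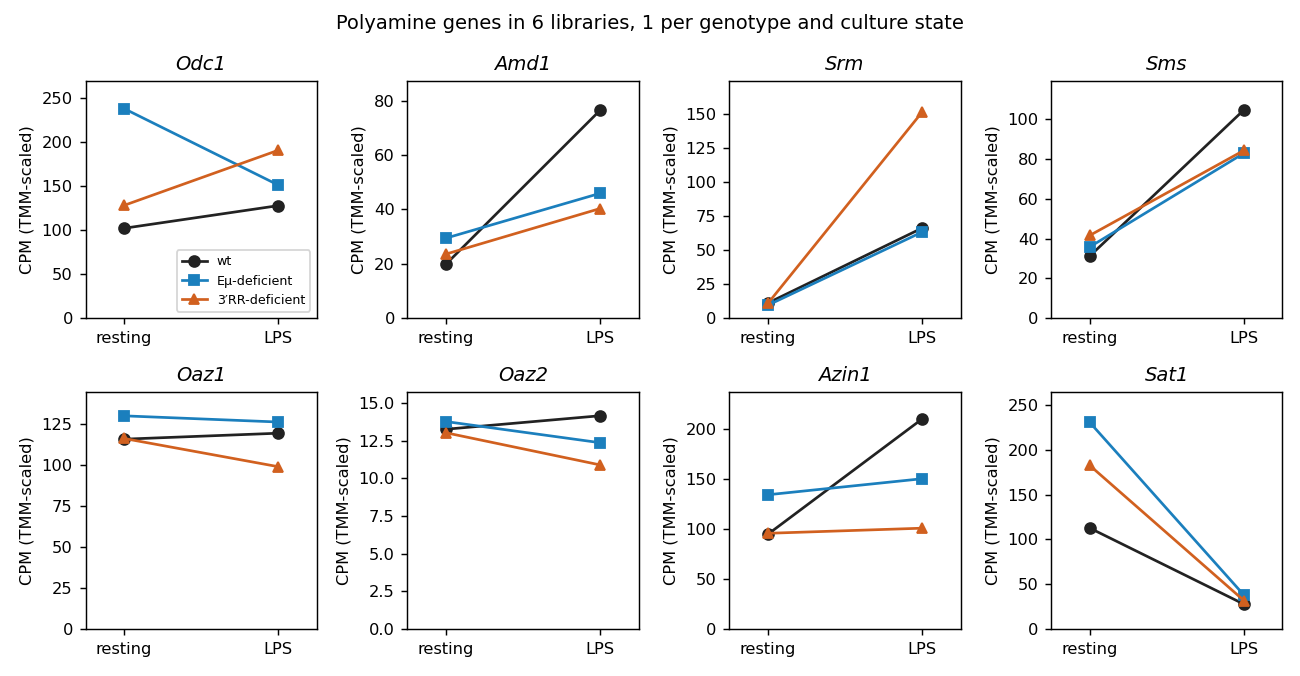
Level of each of the 8 polyamine genes in TMM-scaled CPM (vertical axis, from 0, a scale of its own for each gene) in the resting and the LPS library of wt (circles), of Eμ-deficient (squares) and of 3′RR-deficient mice (triangles), with a line joining the libraries of a genotype. All 3 lines rise for Amd1, Srm and Sms and all 3 fall for Sat1, while those of Odc1 cross.

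From resting to LPS-stimulated B-cells, transcripts of 3 of the 4 synthesis enzymes rose (Srm, Sms, Amd1), those of the acetyltransferase Sat1 fell, and Odc1, Oaz1, Oaz2 and Azin1 did not pass the test. Thus 3 of the 8 genes were called higher and 1 lower at an adjusted p below 0.05 (edgeR quasi-likelihood test, Benjamini-Hochberg adjustment over all genes), where 19.7% of all genes tested were called higher and 21.1% lower (40.8% in all). The same 4 genes were those whose LPS and resting libraries did not overlap. Such separation was seen upwards in 25% and downwards in 27.3% of all genes tested. The same 4 genes were called when the libraries of any 1 genotype were left out, with the log2 fold change of Srm between 2.63 (without 3′RR-deficient) and 3.31. The median fitted log2 fold change of the 8 genes was 0.27, against -0.07 for all genes.

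Srm (chr4:148591503-148594993, plus strand, GRCm38) had the largest response of the 8 genes. Its level was 11.1 CPM in wt, 9.53 CPM in Eμ-deficient and 10.8 CPM in 3′RR-deficient resting cells, and 66.0, 63.1 and 151 CPM in the LPS libraries in the same order. Resting libraries were close to each other in CPM (10.5 ± 0.844 CPM, SD, n = 3), and every LPS library lay above all of them. The closeness depended on the scaling: with spike-in scaling the resting log2 ratio to wt was -1.03 in Eμ-deficient and -0.28 in 3′RR-deficient cells. The fitted increase was 8.18-fold (log2 3.03, SE 0.30, adjusted p = 0.000171, edgeR quasi-likelihood test). Within genotypes the log2 ratio of LPS to resting was 2.57 in wt (95% interval 2.36 to 2.79), 2.73 in Eμ-deficient (2.45 to 3.01) and 3.80 in 3′RR-deficient cells (3.59 to 4.01). These intervals are exact conditional binomial (Clopper-Pearson) and, like all intervals of single libraries here, cover counting error only. With the GC trend removed the ratios were 3.25, 2.64 and 3.61, and with spike-in scaling 1.78, 2.90 and 3.80. None of the 75-base words of the Srm transcript occurs in another annotated gene, so its counts are not shared with a copy.

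Sms (chrX:157443855-157492287, minus strand), which makes spermine, went from 31.2, 35.8 and 41.6 CPM in wt, Eμ-deficient and 3′RR-deficient resting cells to 104.5, 82.8 and 84.2 CPM with LPS. Every LPS library lay above every resting library, and the fitted increase was 2.50-fold (log2 1.32, SE 0.24, adjusted p = 0.00278, edgeR quasi-likelihood test). The log2 ratio within genotypes was 1.74 in wt (1.61 to 1.88), 1.21 in Eμ-deficient (1.05 to 1.37) and 1.02 in 3′RR-deficient cells (0.88 to 1.16). All 3 were past 2-fold, but the 3′RR-deficient interval included a log2 ratio of 1. With spike-in scaling the ratio was 0.95 in wt, 1.38 in Eμ-deficient and 1.02 in 3′RR-deficient cells, so that wt was not past 2-fold. Of its 75-base words, 28.2% also occur in the pseudogene Sms-ps. Promoter windows from RefSeq (GRCm38.p6, 250 bases before to 50 after a transcription start) were matched for 6 of the 8 genes and searched on both strands for CACGTG, the canonical E-box. Among them a match was found in 1 of the windows of Sms, and 7.15% of all 32851 windows hold these letters. That window is shown because it is the only such match among these genes, with the match in capitals, at chrX:157492238-157492537 on the minus strand.
Sms promoter window: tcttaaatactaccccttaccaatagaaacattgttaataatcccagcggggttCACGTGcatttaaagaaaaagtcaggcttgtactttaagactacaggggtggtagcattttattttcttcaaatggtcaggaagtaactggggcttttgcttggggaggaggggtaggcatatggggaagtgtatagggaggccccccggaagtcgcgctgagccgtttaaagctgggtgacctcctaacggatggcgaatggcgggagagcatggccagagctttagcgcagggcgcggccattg
The match lies upstream of the start site. It is a description of these letters and not a binding site, and the other windows show only that the letters are not in them.

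Amd1 (chr10:40287458-40302186, minus strand) encodes a short-lived decarboxylase that feeds both synthases. Its level was 19.9 CPM in wt, 29.4 CPM in Eμ-deficient and 23.6 CPM in 3′RR-deficient resting cells. With LPS it was 76.4 CPM in wt but 45.9 and 40.3 CPM in Eμ-deficient and 3′RR-deficient cells. All LPS libraries were above all resting libraries, and wt was the lowest genotype at rest and the highest with LPS. The fitted increase was 2.17-fold (log2 1.12, SE 0.30, adjusted p = 0.0153, edgeR quasi-likelihood test). It was not called when libraries were scaled by their spike-in RNAs (log2 0.91, adjusted p = 0.109), a scaling that moved the median of all genes from -0.07 to -0.28. Within genotypes the log2 ratio was 1.94 in wt (1.78 to 2.11), 0.64 in Eμ-deficient (0.45 to 0.84) and 0.77 in 3′RR-deficient cells (0.57 to 0.97). With the GC trend removed it was 1.46, 0.61 and 1.03 in the same order. Amd1 is hard to tell from its copies: 82.0% of its 75-base words occur in another gene, mostly in Amd2 (79.6%), an intronless gene at chr10:35708675-35711892. The authors counted fragments that align to several places, so the counts may be split between them. Amd2 itself rose with LPS (log2 1.74, SE 0.30, adjusted p = 0.00202, edgeR quasi-likelihood test), from 4.51, 8.02 and 5.78 CPM to 24.0, 22.3 and 14.5 CPM in wt, Eμ-deficient and 3′RR-deficient cells.

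Odc1 (chr12:17544794-17551505, plus strand), the first enzyme of the pathway, did not follow the synthases. Its level was 102 CPM in wt, 238 CPM in Eμ-deficient and 128 CPM in 3′RR-deficient resting cells, and 128, 151 and 191 CPM with LPS. The resting and LPS libraries overlapped, and the highest value of all was the Eμ-deficient resting library. The fitted log2 fold change was 0.08 (SE 0.30, adjusted p = 0.838, edgeR quasi-likelihood test). Leaving out the libraries of 1 genotype moved it between -0.18 (without 3′RR-deficient) and 0.54 (without Eμ-deficient). The LPS to resting log2 ratio was 0.32 in wt (0.24 to 0.41), -0.65 in Eμ-deficient (-0.74 to -0.57) and 0.57 in 3′RR-deficient cells (0.49 to 0.66). With spike-in scaling it was -0.47 in wt, -0.49 in Eμ-deficient and 0.57 in 3′RR-deficient cells, so that the direction in wt depended on the scaling. Removing the GC trend gave 0.54, -0.79 and 0.36. Of the 75-base words of Odc1, 30.5% occur in other genes. The most counted of these, Gm7993, received 2344 counts over the 6 libraries, against 1617 to 3151 counts of Odc1 in each single library.

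**Figure D2:**
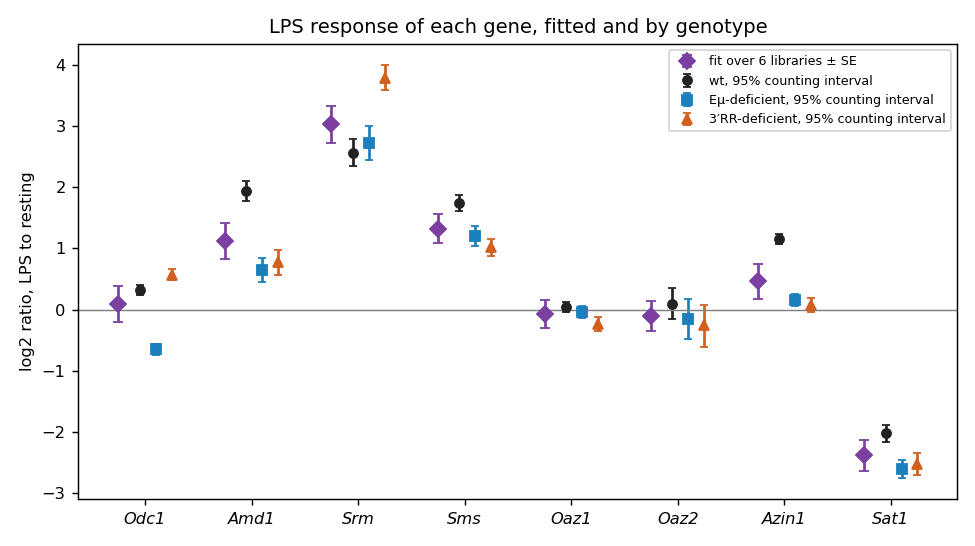
Log2 ratio of LPS to resting for each of the 8 genes, as the effect fitted over 6 libraries with its SE (diamonds) and as the ratio of the 2 libraries of each genotype with its 95% counting interval (circles wt, squares Eμ-deficient, triangles 3′RR-deficient). All genotypes lie above 1 for Srm and Sms and below -2 for Sat1, and Odc1 lies on both sides of 0.

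Neither antizyme gene was called with LPS. Both antizyme messages are read by a +1 ribosomal frameshift that polyamines promote. The shift occurs where a TCC codon meets the TGA stop codon of the first frame. The site is shown for both genes since it is the sequence by which polyamines act on these messages, with the codon and the stop codon in capitals. A single match was found in each gene, at chr10:80828280-80828309 in Oaz1 and at chr9:65686257-65686286 in Oaz2, both on the plus strand of GRCm38 (transcript models of GENCODE M21).
Oaz1: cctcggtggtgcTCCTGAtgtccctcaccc
Oaz2: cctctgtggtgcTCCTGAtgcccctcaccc
Oaz1 (chr10:80826656-80829290, plus strand) had 115.5, 129.8 and 116.0 CPM in wt, Eμ-deficient and 3′RR-deficient resting cells and 119.2, 126.0 and 98.8 CPM with LPS. The ranges overlapped, and the fitted log2 fold change was -0.08 (SE 0.23, adjusted p = 0.812, edgeR quasi-likelihood test). Within genotypes the log2 ratio was 0.04 in wt (-0.04 to 0.13), -0.04 in Eμ-deficient (-0.15 to 0.06) and -0.23 in 3′RR-deficient cells (-0.34 to -0.12). Its sign turned to 0.09 when the counts of the processed pseudogene Oaz1-ps were added, which shares 15.2% of the 75-base words of Oaz1. Oaz2 (chr9:65668001-65690300, plus strand) had between 13.0 and 13.8 CPM in resting and between 10.9 and 14.2 CPM in LPS libraries. The fitted log2 fold change was -0.10 (SE 0.24, adjusted p = 0.758, edgeR quasi-likelihood test), and all 3 intervals of its LPS ratio within genotypes included 0. Per kb of exon, Oaz1 was between 9.84 and 11.9 times as high as Oaz2 in every library.

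Azin1 (chr15:38487427-38519266, minus strand), which releases the decarboxylase from antizyme, had 94.5, 134.0 and 95.5 CPM in wt, Eμ-deficient and 3′RR-deficient resting cells. With LPS it had 209.6 CPM in wt, 150.0 CPM in Eμ-deficient and 100.6 CPM in 3′RR-deficient cells. The wt LPS library was above all others, and the 3′RR-deficient LPS library was within the resting range. The fitted log2 fold change of 0.46 was not called (SE 0.28, adjusted p = 0.221, edgeR quasi-likelihood test). The log2 ratio was 1.15 in wt (1.07 to 1.23), 0.16 in Eμ-deficient (0.06 to 0.26) and 0.08 in 3′RR-deficient cells (-0.04 to 0.19). With the GC trend removed it was 0.60, 0.20 and 0.47 in wt, Eμ-deficient and 3′RR-deficient cells, and with spike-in scaling 0.35, 0.33 and 0.08, so that the distance of wt from the mutants depended on the processing. A further gene, Gm49077, is annotated on the other strand over 358 bases of Azin1 and is not in the count table.

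Sat1 (chrX:155213132-155216449, minus strand), the enzyme that starts the breakdown of polyamines, moved against the synthases. Its level was 112.6 CPM in wt, 230.5 CPM in Eμ-deficient and 182.4 CPM in 3′RR-deficient resting cells, and 27.6, 37.8 and 31.7 CPM with LPS. The highest LPS library lay far below the lowest resting library. In CPM the LPS libraries differed less among themselves (32.3 ± 5.11 CPM, SD, n = 3) than the resting ones (175 ± 59.3 CPM, SD, n = 3). This depended on the scaling. With spike-in scaling the log2 ratios to wt in Eμ-deficient and 3′RR-deficient cells were 0.22 and 0.45 at rest and 0.60 and 0.75 with LPS. The fitted decrease was 5.23-fold (log2 -2.39, SE 0.25, adjusted p = 0.000215, edgeR quasi-likelihood test). The log2 ratio was -2.03 in wt (-2.16 to -1.89), -2.61 in Eμ-deficient (-2.76 to -2.46) and -2.53 in 3′RR-deficient cells (-2.71 to -2.35). Removing the GC trend gave -2.37, -2.68 and -2.38. The summed myeloid markers, which macrophages and neutrophils express, were lower with LPS in the same libraries, at 18.4 to 31.3 CPM against 147 to 346 CPM, and their part in the fall of Sat1 was not tested.

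Within single genotypes, 4 of the 8 genes were past 2-fold higher with LPS in wt (Amd1, Srm, Sms, Azin1), where 21.4% of all genes tested were. In Eμ-deficient cells 2 of the 8 were past 2-fold higher (17% of all genes) and in 3′RR-deficient cells 2 (18.5% of all genes), Srm and Sms in both. Sat1 was the single gene past 2-fold lower in each genotype, where 25.4% of all genes tested were lower by that much in wt, 19.9% in Eμ-deficient and 21% in 3′RR-deficient cells. Whether the LPS responses differed between genotypes was not tested, since such an interaction leaves no residual degrees of freedom.

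Compared per kb of exon, Odc1 had a smaller and Srm a larger share of the synthesis enzymes with LPS. Odc1 itself had a mean of 45.9 CPM per kb in resting and 46.1 CPM per kb in LPS libraries, and it fell in Eμ-deficient cells only. The shares are therefore not independent of the rises of Srm, Sms and Amd1 given above. The size of each share and ratio depends on the length used for each gene, the union of its annotated exons. In resting cells Odc1 made up 62.9%, 77.6% and 64.9% of the summed level of Odc1, Amd1, Srm and Sms, in the order wt, Eμ-deficient and 3′RR-deficient. With LPS its share was 31.9%, 40.2% and 31.9%. The share of Srm was 14.5%, 6.61% and 11.7% in resting and 35.0%, 35.7% and 53.7% in LPS libraries. The LPS and resting libraries did not overlap in either share. The highest share of Srm came from the 3′RR-deficient LPS library, where the GC trend was strongest against wt and levels were not corrected for it. The sum itself was 47.8, 90.2 and 58.0 CPM per kb in resting cells and 117.9, 110.7 and 175.9 CPM per kb with LPS. The ratio of Srm to Odc1 per kb was thus between 0.0852 and 0.231 at rest and between 0.888 and 1.68 with LPS. The ratio of Sat1 to Srm per kb went the other way, from 5.84, 13.9 and 9.70 in resting cells to 0.241, 0.345 and 0.121 with LPS.

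**Figure D3:**
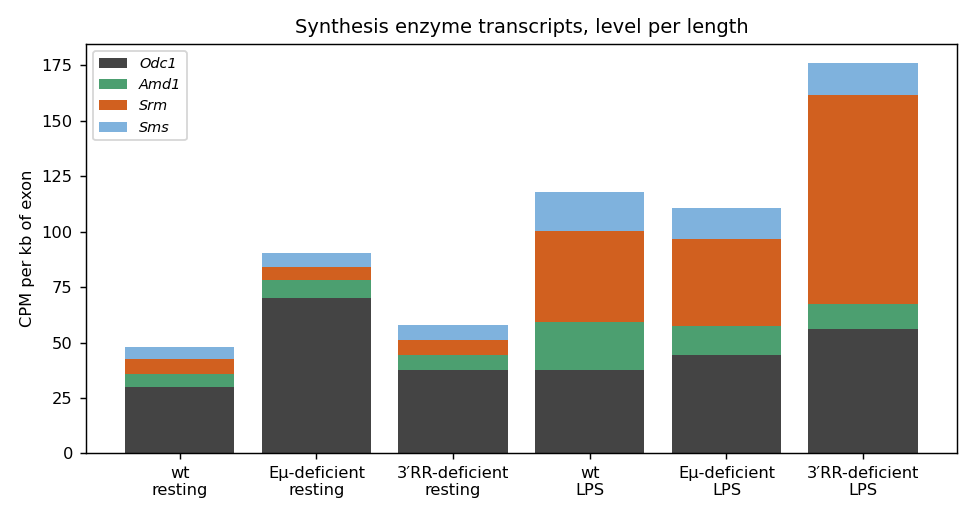
Stacked level of the 4 synthesis enzymes in CPM per kb of annotated exon (vertical axis, from 0) in each of the 6 libraries. Odc1 fills 62.9% to 77.6% of the resting bars and 31.9% to 40.2% of the LPS bars, and Srm has the widest band of the 3′RR-deficient LPS bar.

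The order of the 8 genes per kb also differed between resting and LPS cells. In wt resting cells Oaz1 (45.2 CPM per kb), Sat1 (40.6) and Odc1 (30.0) were followed by Azin1 (15.1), Srm (6.95), Amd1 (5.61), Sms (5.19) and Oaz2 (4.43), all in CPM per kb. The last 4 lay close together by this length: over the resting libraries Srm had 6.56 ± 0.528, Amd1 6.86 ± 1.36 and Sms 6.02 ± 0.863 CPM per kb (SD, n = 3). This SD is over 1 library of each genotype, and whether these 3 genes differ in level was not tested. In wt LPS cells the order was Oaz1 (46.6), Srm (41.3), Odc1 (37.6), Azin1 (33.5), Amd1 (21.6), Sms (17.4), Sat1 (9.95) and Oaz2 (4.73), in CPM per kb. Srm was first in 3′RR-deficient LPS cells (94.4 CPM per kb), in the library whose Srm ratio to wt went from 1.19 to 0.42 on the log2 scale once the GC trend was removed. By this length Oaz2 was last in all 6 libraries, and Azin1 kept the same place in the order in all 6. The order of the genes depends on the length chosen, the union of annotated exons, and was not computed with transcript lengths.

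Between genotypes none of the 8 genes passed the test. For 3′RR-deficient against wt, 0 of the 8 genes were called (edgeR quasi-likelihood test, adjusted p between 0.915 and 0.987), where 0.678% of all genes tested were (0.171% higher and 0.507% lower), and none had an unadjusted p below 0.05. For Eμ-deficient against wt, 0 of the 8 were called, where 1.16% of all genes tested were, and 1 had an unadjusted p below 0.05. Over all 14600 genes, 831 and 1267 had an unadjusted p below 0.05 in these comparisons. DESeq2 also called none of the 8 in either comparison. With 1 library per genotype and state these counts do not show that the genotypes were alike.

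In Eμ-deficient cells the largest fitted differences were those of Odc1 (log2 0.77, SE 0.36, unadjusted 0.0605, adjusted p = 0.627) and Sat1 (log2 0.74, SE 0.30, unadjusted 0.0335, adjusted p = 0.478), both by the edgeR quasi-likelihood test. In the resting library the log2 ratio to wt was 1.22 for Odc1 (1.14 to 1.30) and 1.03 for Sat1 (0.95 to 1.12), and these were the 2 of the 8 genes past 2-fold higher, where 12.6% of all genes tested were. None was past 2-fold lower, where 5.62% of all genes tested were. In LPS cells the ratios were 0.24 (0.15 to 0.33) and 0.45 (0.27 to 0.64). With spike-in scaling the ratio of Odc1 was 0.41 at rest and 0.39 with LPS, and that of Sat1 0.22 and 0.60, so that the state with the larger difference depended on the scaling. At rest Amd1 (0.57, interval 0.36 to 0.78) and Azin1 (0.50, interval 0.41 to 0.60) were also above wt, and both were below it with spike-in scaling (-0.25 and -0.31). The intervals of Srm (-0.22) and Oaz2 (0.05) included 0, and Sms (0.20) and Oaz1 (0.17) were slightly above wt. The latter 2 also depended on the scaling, with 0.0022 for Sms and -0.029 for Oaz1 by total count and -0.61 and -0.65 with spike-in scaling. The Eμ-deficient resting library was also the one with the highest erythroid, myeloid and plasma cell markers (20135, 346 and 1866 CPM in sum, against 3355, 147 and 174 CPM in wt), and their part in these ratios was not tested. Without the wt LPS library Sat1 was called higher in Eμ-deficient cells (log2 1.01, adjusted p = 0.0303, edgeR quasi-likelihood test). In that fit wt is 1 library, assumed to vary like the other groups, and 717 of 14343 genes were called higher, against 133 with all libraries.

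With LPS, Amd1, Azin1 and Sms were lower in the Eμ-deficient than in the wt library, with log2 ratios of -0.74 (-0.88 to -0.59), -0.48 (-0.57 to -0.40) and -0.34 (-0.45 to -0.22). None of the 8 genes was past 2-fold there, where 9.1% of all genes tested were higher and 3.4% lower by that much. The other ratios were 0.08 for Oaz1, -0.06 for Srm and -0.19 for Oaz2, each with an interval that included 0.

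In 3′RR-deficient resting cells Sat1 had the largest log2 ratio to wt, 0.70 (0.62 to 0.77), followed by Sms with 0.41 (0.26 to 0.57) and Odc1 with 0.33 (0.24 to 0.41). The ratios of Oaz1 (0.01), Oaz2 (-0.03), Azin1 (0.01) and Srm (-0.04) had intervals that included 0, and none of the 8 genes was past 2-fold, where 5.38% of all genes tested were higher and 3.95% lower. In LPS cells 1 gene was past 2-fold higher (Srm, log2 1.19, interval 1.08 to 1.30) and 1 past 2-fold lower (Azin1, log2 -1.06, interval -1.16 to -0.96), where 15.9% and 10.7% of all genes tested were. Amd1 followed with -0.92 (-1.09 to -0.76) and Odc1 with 0.58 (0.49 to 0.67). The log2 ratio was -0.31 for Sms, -0.27 for Oaz1 and -0.38 for Oaz2, and 0.20 for Sat1, whose interval included 0. With spike-in scaling Sms, Oaz1 and Oaz2 were above 0 (0.24, 0.28 and 0.17). With the GC trend removed Sms was at 0.13, while Oaz1 and Oaz2 were further below wt (-0.88 and -0.81), Sat1 further above it (0.61) and Odc1 nearer to it (0.22). The pseudogene Oaz1-ps, which shares sequence with Oaz1, went the other way, with 67.5 CPM in 3′RR-deficient against 24.6 CPM in wt LPS cells. Its part in the Oaz1 ratio was not tested. Srm, Azin1 and Amd1 differ in GC content, 59.8% for Srm, 39.3% for Azin1 and 41.4% for Amd1. With the GC trend removed their ratios were 0.42, -0.24 and -0.29, so that none was past 2-fold, and scaling by spike-in RNAs gave 1.74, -0.51 and -0.37. The ratios of both mutants to wt with LPS share the wt LPS library, in which Amd1 and Azin1 had their highest level. In the fit without the wt resting library, Amd1 (log2 -0.95, adjusted p = 0.0302) and Azin1 (log2 -1.03, adjusted p = 0.0268) were called lower in 3′RR-deficient cells by the edgeR quasi-likelihood test. In that fit wt is the LPS library alone, assumed to vary like the other groups, and 821 genes were called higher and 700 lower of 14240, against 25 and 74 with all libraries.

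**Figure D4:**
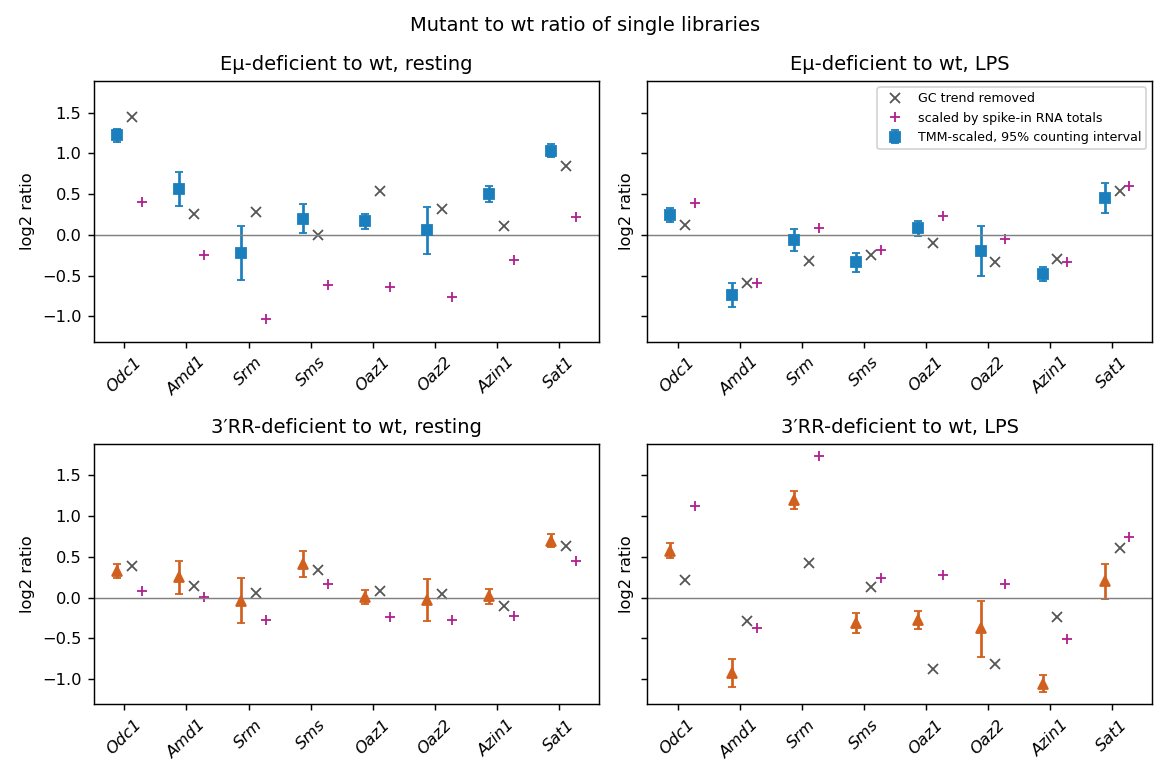
Log2 ratio of a mutant to the wt library for each of the 8 genes, in resting (left) and LPS cells (right), Eμ-deficient above and 3′RR-deficient below. Filled symbols are TMM-scaled ratios with a 95% counting interval, crosses the ratios with the GC trend removed, plus signs those scaled by spike-in RNAs. In 3′RR-deficient LPS cells Srm goes from 1.19 to 0.42 and Azin1 from -1.06 to -0.24 once the GC trend is removed.

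The other genes of the pathway were read from a list of 25 genes, of which 19 passed the filter. With LPS 7 of the 19 rose, 2 fell and 10 did not pass the test, with a median log2 fold change of 0.34. As for the 8 genes above, the backgrounds are 19.7% higher and 21.1% lower.

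Spermidine is needed to make hypusine, a modified lysine of the translation factor eIF5A. Of 4 genes of this route 2 rose. Eif5a went from 112, 81.8 and 95.1 CPM in wt, Eμ-deficient and 3′RR-deficient resting cells to 438.6, 310.3 and 540.3 CPM with LPS, 4.38-fold in the fit (log2 2.13, SE 0.27, adjusted p = 0.000467, edgeR quasi-likelihood test). Its LPS libraries lay far above the resting ones. The related Eif5a2 also rose (log2 1.43, SE 0.35, adjusted p = 0.0114, edgeR quasi-likelihood test). The enzymes that make hypusine, Dhps (log2 -0.41) and Dohh (log2 0.75), were not called. Dohh was called with the GC trend removed (adjusted p = 0.00813) and without the wt libraries (adjusted p = 0.000952). Counts shared with near-identical copies were checked for the 8 genes above and not for this list.

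Each aminopropyl transfer uses a product of S-adenosylmethionine and releases methylthioadenosine, which cells salvage to methionine. Of 8 genes of this supply and salvage route 4 rose and none fell. Mtap, which splits methylthioadenosine, went from 10.9, 8.93 and 13.7 CPM to 50.8, 34.1 and 40.5 CPM in wt, Eμ-deficient and 3′RR-deficient cells (log2 1.90, SE 0.24, adjusted p = 0.000477, edgeR quasi-likelihood test). Ahcy, which hydrolyses S-adenosylhomocysteine, rose 4.54-fold (log2 2.18, SE 0.31, adjusted p = 0.000869, edgeR quasi-likelihood test). Mat2a, which makes S-adenosylmethionine (log2 0.85), and Enoph1, of the salvage route (log2 0.97), rose less. Their calls were lost without the 3′RR-deficient libraries (log2 0.93 and 0.88, adjusted p = 0.0567 and 0.0798) and with spike-in scaling (log2 0.64 and 0.76, adjusted p = 0.289 and 0.196), and that of Mat2a also without the Eμ-deficient libraries (log2 1.05, adjusted p = 0.0848). The 4 genes not called were Mat2b, Mri1, Apip and Adi1, with log2 values between -0.45 and 0.43.

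Smox, spermine oxidase, fell with Sat1. It had 3.03, 11.7 and 4.47 CPM in wt, Eμ-deficient and 3′RR-deficient resting cells and 0.861, 2.81 and 1.23 CPM with LPS (log2 -1.91, SE 0.33, adjusted p = 0.00217, edgeR quasi-likelihood test). Paox, the oxidase of acetylated polyamines, had a log2 value of 0.33 and was not called. Smox was also the gene of the list closest to a call between genotypes, with a log2 difference of 1.84 in Eμ-deficient against wt cells (SE 0.40, adjusted p = 0.0712, edgeR quasi-likelihood test). It was called there by the DESeq2 Wald test (adjusted p = 0.0427). In edgeR it was called with the genotypes compared alone (adjusted p = 0.0319) and with every gene of at least 1 count (0.00682). It was not called in edgeR with scaling by spike-in RNAs (log2 1.45, adjusted p = 0.472) or by total count (log2 1.74, adjusted p = 0.104). With 1 library left out the log2 difference lay between 1.71 and 1.92. Counts of Smox were low, with 18, 30 and 11 in the wt, Eμ-deficient and 3′RR-deficient LPS libraries. As for Odc1 and Sat1, its highest level was in the Eμ-deficient resting library with its high erythroid and myeloid markers, whose part was not tested. None of the other genes of the list was called between genotypes by edgeR with all 6 libraries. Without the wt LPS library, Ahcy (log2 -1.53, adjusted p = 0.00213) and Atp13a2 (log2 -0.94, adjusted p = 0.0360) were called lower in Eμ-deficient cells, and without the wt resting library Atp13a2 was called higher in 3′RR-deficient cells (log2 1.04, adjusted p = 0.0378), all in edgeR. These are the fits with wt as 1 library described above, and the former called 513 genes lower, against 37 with all libraries.

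Of the transport genes, the polyamine exporter of late endosomes Atp13a2 was not called (log2 -0.51), its relative Atp13a3 rose (log2 0.85, SE 0.24, adjusted p = 0.0191, edgeR quasi-likelihood test) and Slc3a2, the heavy chain of amino acid transporters, fell (log2 -0.73, SE 0.26, adjusted p = 0.0485, edgeR quasi-likelihood test). The call of Atp13a3 was lost without the Eμ-deficient (adjusted p = 0.0552) or the 3′RR-deficient libraries (adjusted p = 0.0813) and with spike-in scaling (adjusted p = 0.287). The call of Slc3a2 was lost without the wt libraries (adjusted p = 0.0545) and without the Eμ-deficient libraries (adjusted p = 0.461). It was also lost with DESeq2 size factors, with spike-in scaling, with no genotype term and without the noncoding and immunoglobulin genes (adjusted p between 0.0506 and 0.110). On the supply side of ornithine, Oat was not called (log2 0.31). Arg1, Arg2 and Agmat had at most 2 counts in any library, and so had Oaz3 and Sat2, while Slc18b1 had at most 4. These 6 genes did not pass the filter. A level of 0 to 4 counts is at or near the limit of 3 counts that a library with none allows, so their expression was not detectable at this depth rather than absent.

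**Figure D5:**
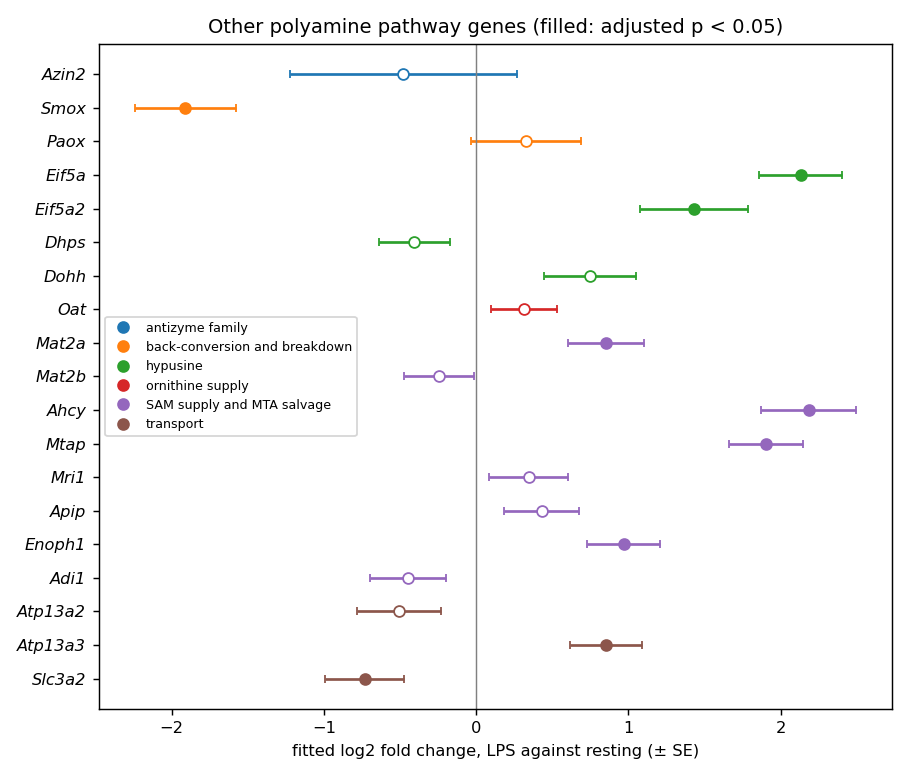
Fitted log2 fold change of LPS against resting (horizontal axis) with its SE for the 19 other pathway genes tested, coloured by list and filled where the adjusted p was below 0.05. Filled symbols to the right are Eif5a, Eif5a2, Mat2a, Ahcy, Mtap, Enoph1 and Atp13a3, and those to the left Smox and Slc3a2.

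Over the 6 libraries, the genes whose log2(CPM + 1) was most like that of each polyamine gene were sought among the 6524 genes that had 100 counts or more in each of them. The libraries of a state share most of their differences, so Pearson's r over 6 points is given as a description. Each r is also the highest of 6524 searched, so values this high can arise from the search alone. This holds for Odc1 too, whose libraries did not separate by state, and a link between the paired genes was not tested. Odc1 was most like Slc48a1 (r = 0.971), a heme transporter, and Urod (r = 0.967), an enzyme of heme synthesis, both highest in the Eμ-deficient resting library at 28.9 and 20.2 CPM. Srm was most like Tars, a tRNA synthetase, and Psmd2, a proteasome subunit (r = 0.998 for both). The genes most like Sms were Lsm7, of RNA processing, and 2810417H13Rik (r = 0.999 and 0.998). Amd1 was most like Pdcl and Dbt (r = 0.997 for both), and Azin1 most like Lrrc58 and Exoc5 (r = 0.998 and 0.995), all of which had their highest level in the wt LPS library. Sat1 was most like Gm25395 (r = 0.998) and Jun (r = 0.997), a subunit of the AP-1 transcription factor. Oaz1 was most like Usp9x (r = 0.986) and Selk (r = 0.985), and Oaz2 most like Qk (r = 0.998) and Rnf138 (r = 0.995).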

How the data were processed

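The deposited table holds unnormalized counts by gene name, made by the authors per the labels and the methods of the study from stranded, ribosomal RNA-depleted libraries with ERCC spike-in RNAs (STAR 2.4.0a, mm10, Ensembl release 77, featureCounts of Subread 1.4.6-p1, strand option 1, fragments that align to several places included). The strand of the counts was looked at on 113 pairs of overlapping genes on opposite strands. The gene inside the other had a median count density of 0.459% of its partner, and was denser than it in 5 pairs. Only pairs with a well-counted partner were kept, with no such demand on the gene inside. That choice itself favours a low density, so the check alone does not settle which strand was counted. The 92 spike-in names took between 4.75% and 7.10% of the counts and stayed out of library sizes and tests.

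From these counts, genes that reached 10 counts in 2 libraries or more were fitted with edgeR 4.0.16 (R 4.3.3; TMM scaling, quasi-likelihood test, genotype and state as additive terms, Benjamini-Hochberg threshold 0.05). In 1 simulation of the LPS effect (14245 genes), 100 well-counted genes were changed by a log2 fold of 1 and 100 by 2. All other genes had no effect. Of the changed genes 47% and 100% were recovered, and 4.55% of calls were false. In the real data 40.8% of all genes tested were called with LPS, so these shares do not carry over to that test. Ratios of 2 libraries carry exact conditional binomial intervals (scipy 1.17.1). They cover counting error only, because each side is 1 library. Reads copied by PCR do not stand for separate molecules, so the intervals may be too narrow even for that error. Whether the 2 pooled mice of a library resemble other mice cannot be read from these data. Alternatives were another scaling (total count, DESeq2 1.42.0 size factors, spike-in totals), other count filters, the DESeq2 Wald test, offsets for GC content, no genotype term, the genotypes compared alone, and each library or genotype left out. The sums with copies and the fit without abundant noncoding, mitochondrial and immunoglobulin genes were added after the data were seen. Coordinates, exon lengths, GC content and transcript sequences come from GENCODE M21 (GRCm38, the build of mm10), promoter windows from RefSeq.

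The 8 genes and the lists were chosen by their place in the pathway, with earlier results of these data known. Named in the text are the 8 genes, their copies (Amd2 and pseudogenes; Gm7993 was named after its counts were seen), the pathway list and, for each gene, the 2 with the highest Pearson correlation. Srm and Azin1 had no promoter window, and the similarity of the proteins was not analysed here.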

Additional observations from a re-analysis of the deposited data

Results flagged for a closer look

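In 7 comparisons the libraries of a gene moved in opposite directions in different genotypes or states. None of these differences was tested, since each rests on single libraries. The LPS to resting log2 ratio of Odc1 was above 0 in wt and 3′RR-deficient cells and below 0 in Eμ-deficient cells, a difference of 0.98 between wt and Eμ-deficient and of -1.23 between Eμ-deficient and 3′RR-deficient cells. With spike-in scaling the ratio was -0.47 in wt and -0.49 in Eμ-deficient cells, so that these no longer differed in direction. Both differences use the resting and the LPS library of Eμ-deficient cells. Erythroid, myeloid and plasma cell markers were highest in that resting library, and their part in these differences was not tested.

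The log2 ratio of mutant to wt was above 0 in resting and below 0 in LPS cells for Amd1 in both mutants, for Sms in both and for Azin1 in Eμ-deficient cells. The ratio with LPS minus that at rest was -1.30 for Amd1 in Eμ-deficient and -1.17 in 3′RR-deficient cells. For Sms it was -0.53 in Eμ-deficient and -0.73 in 3′RR-deficient cells, and for Azin1 in Eμ-deficient cells -0.99. The ratios of both mutants share the wt libraries, so that they are not independent of each other. These signs depended on the scaling. With spike-in scaling the resting Eμ-deficient ratios of Amd1 (-0.25), Sms (-0.61) and Azin1 (-0.31) were below 0 too, that of Amd1 in 3′RR-deficient resting cells was 0.0028, and that of Sms in 3′RR-deficient LPS cells was above 0 (0.24).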

How the results depend on the processing

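The LPS calls of the 8 genes stayed at 3 higher and 1 lower in every alternative run except spike-in scaling, which called 2 higher (Amd1 lost). In that scaling Odc1 was -0.13 for LPS, and 4 pathway genes were called higher and 1 lower, with 1454 of all genes higher, against 2883 with TMM. The wt ratio of LPS to resting had 2 of the 8 genes past 2-fold higher and Odc1 at -0.47. The Eμ-deficient to wt resting ratio had 0 past 2-fold higher and 1 lower (Srm), with Amd1 -0.25, Sms -0.61, Oaz1 -0.65 and Azin1 -0.31. The 3′RR-deficient to wt LPS ratio had 2 past 2-fold higher and 0 lower, with Sms 0.24, Oaz1 0.28 and Oaz2 0.17. In the fit Oaz1 was 0.0020 in 3′RR-deficient and -0.21 in Eμ-deficient against wt, with 60 of all genes called higher in the former and 76 lower in the latter. Scaling by total count gave LPS Odc1 -0.012, 3′RR-deficient Sms -0.026, and at rest in Eμ-deficient cells Oaz1 -0.029 with 1 gene past 2-fold higher. Removing the GC trend left 1 gene past 2-fold higher in Eμ-deficient resting cells (Sms -0.0060), and 0 higher and 0 lower in 3′RR-deficient LPS cells (Sms 0.13).

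Only 1 pathway gene was called lower with LPS with DESeq2 size factors, without the noncoding and immunoglobulin genes, and with no genotype block. Sums with copies gave Oaz1 0.093 for LPS and 0.072 for 3′RR-deficient against wt. With every gene of at least 1 count, 3′RR-deficient Sms was -0.015, 135 and 204 of all genes were called higher and lower in 3′RR-deficient and 484 and 121 in Eμ-deficient cells, with 1 pathway gene higher there. With a filter of 50 counts in 3 libraries, 16 and 32 were called in 3′RR-deficient cells and 12 lower in Eμ-deficient cells, with Azin1 at 0.0078. DESeq2 called 56 and 122, and 277 and 63, with 1 pathway gene higher in Eμ-deficient cells. The genotypes compared alone gave 53 and 124, and 325 and 68, with 1 pathway gene higher and Azin1 0.011 in Eμ-deficient cells. Without the noncoding and immunoglobulin genes, 60 of all genes were called higher in Eμ-deficient cells. The cause of these shifts was not tested.

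With a library or genotype left out, LPS values lay between -0.18 and 0.54 for Odc1, -0.18 and 0.014 for Oaz2, and -0.12 and 0.62 for Paox, with 4 to 8 pathway genes called higher, 1 to 2 lower, and 1845 to 3229 of all genes lower. For 3′RR-deficient against wt, Amd1 lay between -0.95 and 0.28 and Sms between -0.26 and 0.36, with 0 to 2 of the 8 genes called lower, 0 to 1 pathway genes higher, and 38 to 821 of all genes higher and 70 to 700 lower. For Eμ-deficient against wt, Amd1 lay between -0.72 and 0.53, Azin1 -0.53 and 0.52, Oaz2 -0.24 and 0.078, Sms -0.40 and 0.25, and Srm -0.52 and 0.18, with 0 to 1 of the 8 genes called higher, 0 to 1 pathway genes higher and 0 to 2 lower, and 166 to 717 of all genes higher and 28 to 513 lower. The highest counts came without the wt resting library for 3′RR-deficient and without the wt LPS library for Eμ-deficient cells.

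The model of the LPS effect pairs the libraries of a genotype through its genotype term, and without that term the 8 genes gave the same numbers of calls. The samples carry no replicate numbers to pair them by. The number of libraries limits what genotypes can show: a difference between genotypes, in 1 state or in both, cannot be told apart from a difference between pools of mice.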
